A study of Mus musculus with 7 samples.

Results

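The 4 libraries titled mdx were described here, out of 7 libraries in the series. Each holds RNA from the whole soleus of a mouse aged 60 days, and they were chosen by their titles alone, which name replicates 1 to 4 as animals 358, 361, 373 and 375. The 3 libraries left aside are titled mdx/Runx1f/f and come from soleus of the same age, so the mdx mutation is common to all 7 animals. No contrast between the genotypes was made, apart from the check of Runx1 and values of a few genes set by animal number. mdx is a nonsense mutation of Dmd that removes full-length dystrophin from muscle, and mdx mice are a model of Duchenne muscular dystrophy in which the muscle fibres still regenerate well. The labels name no strain background, no sex and no age-matched muscle with intact dystrophin, so the values below describe dystrophic muscle and cannot be set against healthy muscle. Whole muscle was used, so every cell type of the tissue contributes RNA, and fewer cells of a type and less RNA per cell cannot be told apart in any of the values below.

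The soleus is a postural calf muscle rich in slow-twitch fibres, which carry slow isoforms of myosin, troponin and the calcium pump and rely on mitochondrial respiration. Fast fibres carry a parallel set of isoforms from separate genes, so the transcripts of a muscle report its mix of fibres. In mdx muscle, fibres without dystrophin tear and are replaced, and macrophages, fibroblasts and fibro-adipogenic progenitors, the stromal cells that make matrix or fat after injury, gather around them.

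Labels were checked first. The libraries held 16529110, 16807844, 17822361 and 18550109 counts in replicates 1 to 4, with reads in 17460 to 17582 genes each. The titles and the column headers of the deposited table pair the animals as given above, but the description field ties most animal numbers to another sample, and the design text counts 3 mdx and 4 mdx/Runx1f/f animals, the reverse of the titles. Runx1, the transcription factor gene that the floxed allele targets, was at 15.1, 15.0, 12.8 and 11.1 counts per 1000000 (CPM, scaled by TMM) in the libraries titled mdx. On a scale set over all 7 libraries it was at 11.4 to 15.5 CPM in these 4 and at 33.5 to 52.9 CPM in the others. The 3 with the floxed allele thus had more of the transcript and not less, so this check shows no loss of Runx1 and cannot settle the labels. The group is called by its title throughout, and the authors' own fold changes also follow the titles. Dmd stood at 50.4, 46.8, 47.2 and 39.9 CPM and Utrn, which encodes the dystrophin relative utrophin, at 93.1, 119, 83.9 and 94.5 CPM. A nonsense mutation leaves most of the transcript countable, so the level of Dmd does not check the genotype. Xist had 3 counts or fewer in every library, while the Y-linked Uty stood at 22.4 to 27.3 CPM, and the Y-linked Ddx3y is listed at 0 in all. Of the 5 sex-linked genes examined, the Y-linked Eif2s3y was the most abundant, with 70.3% of their counts.

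A small set of genes took a large part of the counts. The 10 most abundant genes held 18.9%, 18.6%, 19.9% and 19.1% of the counts in replicates 1 to 4, or 19.1% ± 0.571 (SD, n = 4). The 100 most abundant held 43.2%, 43.1%, 46.8% and 44.5%. It took 198, 200, 139 and 172 genes to reach 50% of the counts, so replicate 3 was the most concentrated library. Of 29869 genes in the table, 19311 had a count in at least 1 of the 4 libraries and 12172 were detected at 1 CPM or more in all 4.

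By counts, which also grow with transcript length, the most abundant features were DQ539915, a symbol the files do not pair with a gene name, at 3.65% of the counts, Acta1 at 3.58%, Cytb, the mitochondrially encoded cytochrome b, at 2.66%, and the giant sarcomere scaffold Ttn at 1.85%. AK018753 and AK163440, also without a name, held 1.30% and 1.29%. Genes were then ranked by a per-length level, the reads per kilobase of exon scaled to the same sum in each library, which was computed for the 22219 genes with an exon length from the GENCODE M21 annotation. These genes held 89.3% to 90.2% of the counts, and DQ539915, Cytb, AK018753 and AK163440 were not among them, so they have no place in this ranking. Cytb had more counts than mt-Nd4, at 2.66% against 1.06%, so the order below holds only among genes with a matched length.

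Among the genes with a matched length, Acta1, the skeletal alpha-actin of the thin filament, had the highest per-length level. It was at 66007, 70989, 74228 and 65402 in replicates 1 to 4, or 69157 ± 4207 (SD, n = 4). mt-Nd4, a mitochondrially encoded subunit of respiratory complex I, came next at 21498 ± 425, followed by Tnnc2, the calcium-binding fast troponin, at 20285 ± 3853. The level of mt-Nd4 was close in all 4 libraries, while Tnnc2 was at 16840 and 17119 in replicates 1 and 2 and at 22962 and 24220 in replicates 3 and 4. mt-Nd4 and Tnnc2 are neighbours in this order that do not differ beyond the spread of Tnnc2. Behind them stood Tpm2 at 15830 ± 596, Tnnt3 at 15805 ± 4170, Mylpf at 14360 ± 4656 and Mb, the oxygen store myoglobin, at 14059 ± 1564, which cannot be ordered beyond their spread. The slow troponin and light-chain genes Tnnt1, Myl3, Tnnc1 and Myl2 followed at mean per-length levels of 12406, 12393, 12057 and 11353. Fast and slow thin-filament genes thus lay side by side among the highest levels of this slow muscle.

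Of the 25 highest per-length levels, 17 belonged to genes of the fibre lists, 6 to the metabolic lists, 1 to the stromal lists and 1 to the remaining lists, and these 25 genes held 31.6% of the summed level. The stromal entry was Car3, carbonic anhydrase 3, at a level of 7558 ± 1722 (SD, n = 4). It sits in the adipocyte list but is also abundant in slow muscle fibres. Of the highest 100 levels, 38 were fibre genes and 43 metabolic genes. Of the highest 500, 82 were fibre genes and 121 metabolic genes, 15 stromal and 3 immune, and 256 were in no list. The other fibre genes among the 25 were the Z-disc cap Tcap, the fast troponin inhibitor Tnni2, the fast calcium pump Atp2a1, the LIM protein Fhl1, slow Tnni1, slow myosin Myh7, the chaperone Cryab and the crosslinker Actn2, with mean levels from 5217 for Actn2 to 10767 for Tcap. The other metabolic genes among the 25 were the creatine kinase Ckm (7293), the glycolytic aldolase Aldoa (6471), the ATP synthase subunit Atp5b (6279) and the ADP/ATP carrier Slc25a4 (6127). The small heat shock protein Hspb6 closed the 25 at 5016 ± 604.

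**Figure D1:**
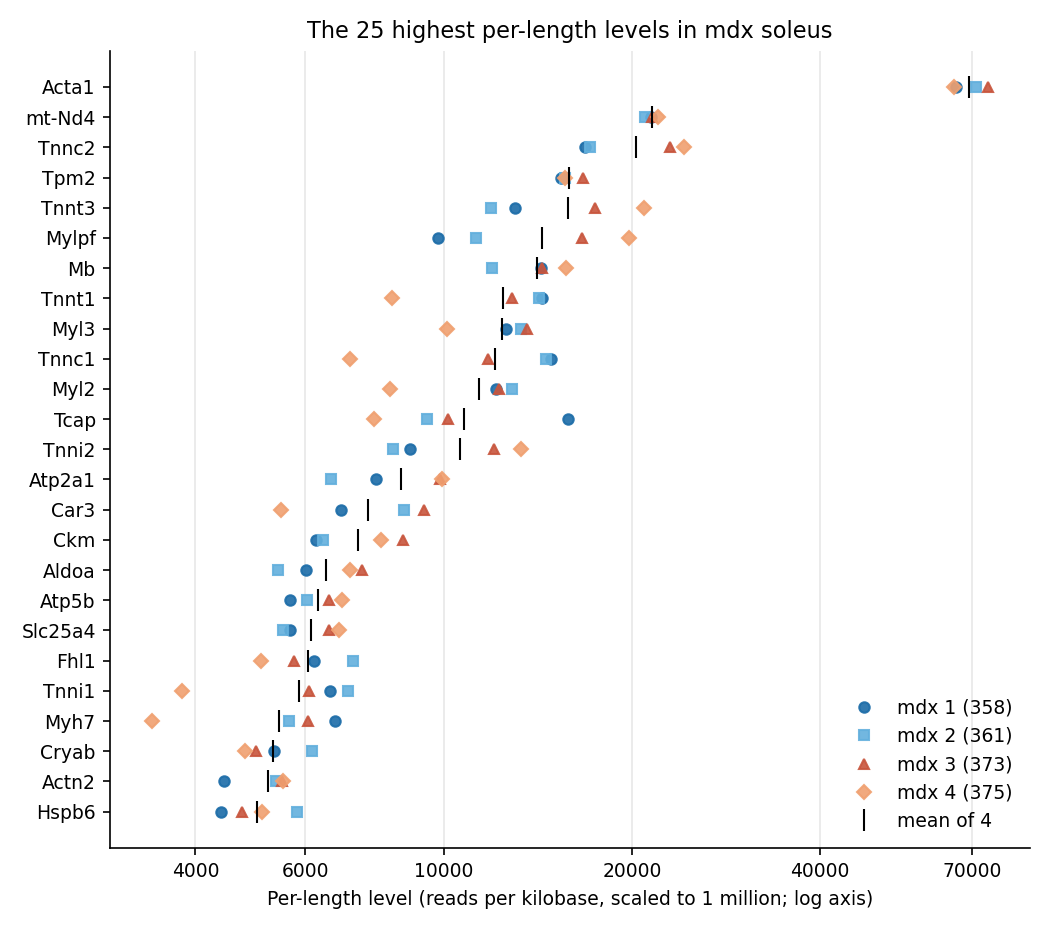
Per-length level (scaled reads per kilobase of exon, log axis) of the 25 highest genes, with 1 point per library and a black tick at the mean of 4. Only genes with a matched exon length are ranked, which leaves out the abundant Cytb and DQ539915. Among the genes shown, Acta1 stands apart at 65402 to 74228. The points of fast genes such as Mylpf and Tnnt3 lie higher for replicates 3 and 4, and those of slow genes such as Tnnt1 and Myh7 lie lowest for replicate 4.

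To describe composition, 826 entries of 39 gene lists, none shared between lists, were summed as a share of all counts in each library. The 162 fibre genes of the table held 25.1%, 25.4%, 28.0% and 25.1% of the counts in replicates 1 to 4, or 25.9% ± 1.42 (SD, n = 4). The 175 metabolic genes held 10.3%, 10.1%, 11.8% and 12.1%, the 170 stromal genes 2.28%, 2.59%, 1.92% and 2.38%, and the 102 genes of translation 1.08%, 1.06%, 1.01% and 0.957%. The 112 immune genes held 0.308%, 0.257%, 0.126% and 0.150%. All lists together held 41.5% ± 1.66 of the counts. The fibre share varied 1.12-fold between its lowest and highest library and the stromal share 1.34-fold. Car3 gave 19.8% of the stromal counts, and without it the stromal share was 1.35% to 2.08%, with a mean of 1.84% against 2.29%. The immune share varied 2.45-fold, with replicates 1 and 2 above replicates 3 and 4. Metabolic transcripts are short, and per length their share was larger: 19.1% of the summed level against 11.1% of the counts, beside 32.1% and 25.9% for fibre genes.

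**Figure D2:**
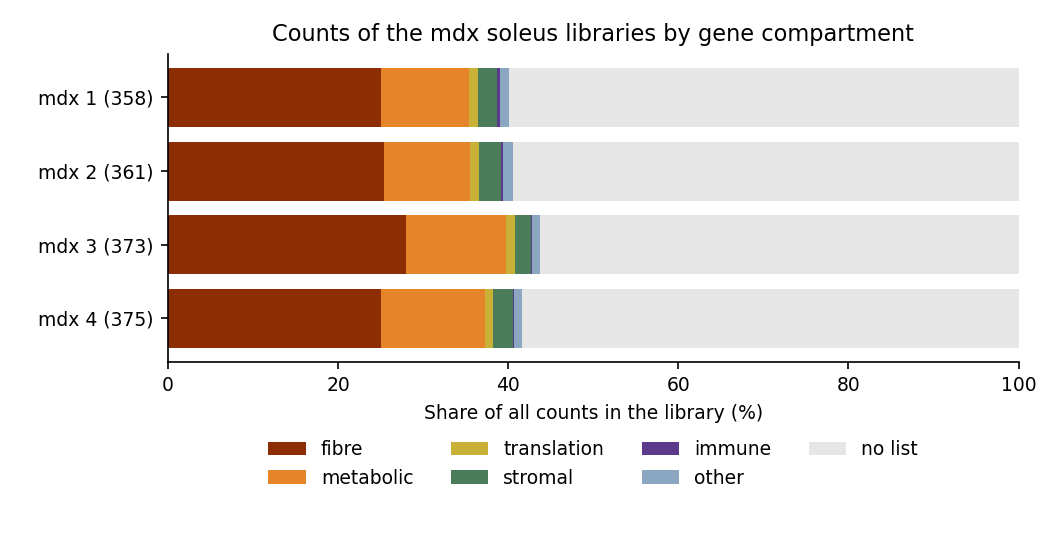
Share of all counts in each mdx library (%) held by 6 groups of gene lists, with 1 bar per library and genes in no list in grey. Fibre genes fill 25.1% to 28.0% of each bar, metabolic genes 10.1% to 12.1%, and immune genes only 0.126% to 0.308%.

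Among fibre genes, sarcomere parts used by slow and fast fibres alike formed the largest list, at 9.88%, 10.1%, 10.9% and 9.87% of the counts in replicates 1 to 4. Acta1, Ttn, Tpm2 and the thin-filament ruler Neb led it at 3.58%, 1.85%, 1.35% and 0.759%. Of its 20 genes 19 were detected, and Actc1, the actin of heart and of developing muscle, was the only gene of the 19 with at least a 2-fold range, at 47.3, 60.2, 117 and 127 CPM. The slow sarcomere list of 10 genes held 4.72%, 4.56%, 4.61% and 3.04%, and the fast list of 12 genes held 2.71%, 2.66%, 4.02% and 4.38%. Replicate 4 was thus low in slow transcripts, and replicates 3 and 4 were both high in fast ones.

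The slow myosin Myh7 had 14385, 12147, 14969 and 7769 CPM in replicates 1 to 4, so replicate 4 was apart. Myh2, the myosin of fast oxidative type 2A fibres, had 5648, 5281, 7436 and 9968 CPM, and Myh1, that of type 2X fibres, 3549, 3347, 6891 and 5085 CPM. Myh4, the myosin of type 2B fibres, which the mouse soleus barely holds, was at 40.6, 111, 489 and 181 CPM. It was 12.02-fold higher in replicate 3 than in replicate 1, although per length it stayed between 0.166% and 1.66% of the summed level of 8 sarcomeric myosin genes.

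On that per-length scale Myh7 held 55.8%, 50.2%, 48.4% and 32.2% of the myosin level in replicates 1 to 4, Myh2 held 22.8%, 22.7%, 24.96% and 42.8%, and Myh1 14.3%, 14.4%, 23.1% and 21.8%. Myh7 led in replicates 1 to 3, while in replicate 4 Myh2 stood above it.

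The same order ran through other paired isoforms. The slow share is the counts of slow isoforms over slow plus fast isoforms of a family, and for myosin heavy chain it was 60.9%, 58.2%, 50.3% and 33.8% in replicates 1 to 4. For the myosin light chains it was 69.1%, 67.1%, 58.4% and 45.9%, and for troponin T, which ties troponin to tropomyosin, 50.5%, 52.5%, 40.5% and 26.8%. Troponin I, the inhibitory subunit, had 52.1%, 55.3%, 42.5% and 29.5%, and troponin C, the calcium sensor, 47.6%, 46.7%, 34.5% and 23.1%. In each of these families replicate 4 was lowest and replicate 3 next, and replicates 1 and 2 did not overlap with them. The calcium pump (Atp2a2 over Atp2a2 plus Atp2a1) had a slow share of 48.3%, 53.0%, 35.6% and 29.7%, and the calcium store protein calsequestrin (Casq2 against Casq1) one of 29.1%, 26.9%, 22.8% and 21.3%. Myosin-binding protein C differed in its level and order: Mybpc1 took 97.3%, 96.6%, 93.0% and 94.5%, so replicate 3 was lowest, and this was the family with the narrowest range. In all 8 families replicates 1 and 2 lay above replicates 3 and 4. These families are read in the same 4 muscles, so they are not 8 separate observations of a difference between animals.

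**Figure D3:**
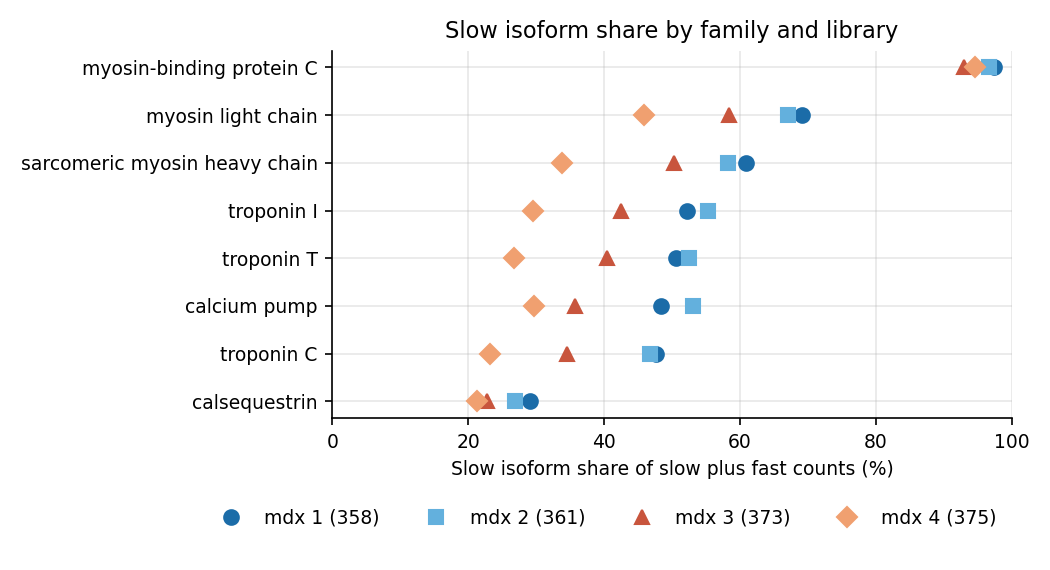
Slow isoform share of slow plus fast counts (%) in 8 gene families, with 1 point per mdx library. Replicate 4 is the lowest point in 7 of the 8 families, as for myosin heavy chain at 33.8%, and replicates 1 and 2 lie to the right of replicates 3 and 4 in each.

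Myh6, the alpha myosin heavy chain of the heart, had the widest range of any named gene with a mean of at least 10 CPM: 1434, 2397, 42.6 and 23.3 CPM in replicates 1 to 4, or 103-fold between the highest and the lowest. Per length it held 5.75% and 10.2% of the sarcomeric myosin level in replicates 1 and 2 and 0.142% and 0.0998% in replicates 3 and 4. Most other genes typical of heart muscle were at or near 0: Myl7, Tbx5 and Bmp10 had no count in any of the 4 libraries, where a count of 0 allows up to 3 counts a library, and Nppa, Nppb, Gata4 and Tbx20 had 0 to 0.272 CPM. Ryr2 and Hcn4 had means of 0.497 and 0.417 CPM and Tnni3 one of 1.09 CPM. Myl4, the atrial light chain that developing skeletal muscle also uses, was at 31.2, 34.1, 51.00 and 51.03 CPM, lower in replicates 1 and 2 where Myh6 was high. Myh7b, a relative of Myh7 found in slow and eye muscles, had the same order of libraries over a far narrower range, 2.42-fold, at 151, 202, 126 and 83.1 CPM. Myh6 lies beside Myh7 in the genome and resembles it closely, and how reads that match more than 1 place were counted is not given in the sources used here. In the coding sequences of GENCODE M21, 23.8% of the 50-base windows of Myh7 also occur in Myh6, and the longest identical run is 245 bases. The rest of the windows tell the genes apart. The 60 bases that follow this run are shown to make the likeness visible. Capitals mark the bases that differ, positions 4491 to 4550 of the Myh6 coding sequence and 4485 to 4544 of that of Myh7, counted from the first base of the start codon.

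Myh6: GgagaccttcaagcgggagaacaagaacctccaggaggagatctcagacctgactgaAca
Myh7: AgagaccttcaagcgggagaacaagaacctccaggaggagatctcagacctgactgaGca

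These stretches differ at 2 bases, so a short read inside the space between them matches both genes. How such reads were counted here, and their part in the values of Myh6, was not tested.

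Z-disc, calcium-handling, dystrophin-complex and membrane lists moved little as sums. Z-disc and cytoskeleton genes, led by Fhl1, the intermediate filament Des and the nebulin relative Nrap, held 3.51%, 3.89%, 3.87% and 3.49% of the counts. Genes of calcium handling, led by the pumps Atp2a1 and Atp2a2 and the release channel Ryr1, held 3.04%, 2.92%, 3.35% and 3.05%. Their 2 pumps moved apart: Atp2a1 was at 9211, 7790, 13453 and 12476 CPM and Atp2a2 at 8608, 8800, 7451 and 5266 CPM. Pvalb, the calcium buffer of fast fibres, was at 119, 115, 522 and 217 CPM, and Sln, the pump inhibitor sarcolipin, at 272, 320, 273 and 151 CPM. The dystrophin complex, 18 genes all detected, held 0.241%, 0.254%, 0.233% and 0.230%. None of its 15 genes with at least 10 CPM had a 2-fold range, against 6.55% of all 8216 genes at that level. A list this small cannot be told from that background by the count. Its median SD of log2 CPM was 0.146, beside 0.145 for all these genes. Membrane channels and junction genes were the tightest list of all by coefficient of variation, 1.91%. The summed shares of the dystrophin-complex and membrane lists were thus nearly constant across muscles that differed in fibre-type isoforms.

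Regeneration was visible but scarce. The 18 genes of that list, 16 of them detected, held 0.0595%, 0.0828%, 0.0909% and 0.0990% of the counts, lowest in replicate 1. Its leaders were the developmental myosins: embryonic Myh3 had 77.1, 163, 240 and 213 CPM and perinatal Myh8 91.5, 152, 187 and 304 CPM. Per length these held 0.685% ± 0.264 and 0.571% ± 0.308 (SD, n = 4) of the sarcomeric myosin level. The growth factor Igf2 was at 67.9, 129, 135 and 167 CPM, so all 3 were lowest in replicate 1, the library with the highest macrophage share. Chrna1, the next member of the list, did not share this order: it was at 107, 92.8, 108 and 63.5 CPM, lowest in replicate 4. Myog, the differentiation factor of myoblasts, was at 17.9, 20.3, 35.1 and 24.1 CPM, and Pax7, which marks satellite cells, at 4.77, 7.50, 8.47 and 7.02 CPM. Myog and Pax7 were present in all 4 libraries at low levels. Cell-cycle genes were scarcer still, at 0.0175%, 0.0105%, 0.00706% and 0.0106%, and the division marker Mki67 had 20.1, 6.30, 4.93 and 11.8 CPM.

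Respiration was the largest of the metabolic lists by counts. Oxidative phosphorylation, 90 genes with 84 detected, held 3.97%, 3.96%, 4.50% and 4.57% of the counts, and 9.93% of the summed per-length level. mt-Nd4 alone gave 24.9% of its counts. Of the nuclear genes, the ATP synthase subunits Atp5b and Atp5a1 led with 4326 ± 596 and 3539 ± 550 CPM (SD, n = 4), ahead of the succinate dehydrogenase subunit Sdha at 1363 ± 186 CPM. A 2-fold range was found in 1 of the 82 genes with at least 10 CPM, against 6.55% of all 8216 genes at that level. This was Ndufa12, at 28.8, 36.4, 59.3 and 40.7 CPM. Cytb was not matched by this list's pattern and is counted in no list.

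The energy-buffer list (creatine kinases, myoglobin, adenylate enzymes) held 2.09%, 2.00%, 2.52% and 2.56% of the counts, glycolysis with glycogen use 1.76%, 1.59%, 2.05% and 2.00%, and the tricarboxylic acid cycle 1.56%, 1.59%, 1.73% and 1.94%. Each of these was higher in replicates 3 and 4 than in replicates 1 and 2. The muscle creatine kinase Ckm had 5827, 5977, 9241 and 7853 CPM, and the glycogen phosphorylase Pygm 1856, 1697, 2743 and 2480 CPM. Slow and fast fibres both carry these genes, and the fast sarcomere list was high in the same 2 libraries. Whether the share of fast fibres plays a part was not tested. Fatty acid oxidation was steadier at 0.915%, 0.967%, 0.964% and 1.08%, led by the lipase Lpl at 2210 ± 102 CPM. Pdk4, the kinase that shuts off pyruvate dehydrogenase in fasting, stood out in replicate 4, at 775, 1026, 866 and 2270 CPM.

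Ribosomal protein genes held only 0.373%, 0.338%, 0.330% and 0.305% of the counts. Of 85 in the table, 60 were detected and 40 reached a mean of 10 CPM. Many of these genes have processed copies elsewhere in the genome that can take up or void their reads, so their counts are uncertain. Rpl3l, a muscle form of a large-subunit protein, was among the leaders at 399 ± 63.2 CPM (SD, n = 4). Rplp0 was at 276, 94.3, 271 and 174 CPM and Rpl30 at 21.6, 37.1, 1.26 and 1.74 CPM, high in replicates 1 and 2. The muscle elongation factor Eef1a2, at 1701 ± 193 CPM, led the translation factors, whose list kept within 0.652% to 0.722%. Among chaperones, Hspb7 at 2766 ± 284 CPM and Hspb6 at 2447 ± 282 CPM were followed by the cytosolic chaperone Hsp90ab1 at 1341 ± 117 CPM, and the list held 0.811%, 0.910%, 0.766% and 0.771%.

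Stromal transcripts were led by matrix. Collagens, 42 genes with 29 detected, held 0.468%, 0.557%, 0.363% and 0.653% of the counts, and other matrix genes 0.703%, 0.793%, 0.495% and 0.748%. Replicate 3 was lowest in both. Col3a1, a fibrillar collagen of soft connective tissue, had 935, 1252, 843 and 1388 CPM, and Col1a1, the chain of scar and tendon collagen, 717, 711, 405 and 806 CPM. Col4a1, of the basement membrane around fibres and vessels, followed another order, at 310, 558, 581 and 1114 CPM. It was 3.59-fold higher in replicate 4 than in replicate 1, and its partner Col4a2 was at 246, 398, 410 and 693 CPM. The endothelial receptor Kdr was likewise lowest in replicate 1 and highest in replicate 4, at 39.7, 71.9, 123 and 199 CPM, a 5.01-fold range, while the endothelial marker Pecam1 had a 1.59-fold range, at 136, 175, 149 and 215 CPM. The whole endothelial list held 0.163%, 0.189%, 0.144% and 0.198%, so the order of Kdr was not that of the list.

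Tendon genes had the widest relative spread of the stromal lists, at 0.0927%, 0.0980%, 0.0370% and 0.0563% of the counts, a 2.65-fold range. Thbs4 gave 59.3% of these counts, and without it the list held 0.0179% to 0.0380%. The tendon and muscle-junction protein Thbs4 was at 576, 578, 205 and 296 CPM, and Comp at 37.9, 39.2, 10.3 and 25.1 CPM. Tnmd, a defining tendon gene, was at 27.2, 21.8, 9.85 and 26.6 CPM, and Scx, the tendon transcription factor, at 9.77, 13.1, 15.1 and 11.3 CPM. Of the 8 tendon genes all were detected, and Scx did not share the low value in replicate 3. Prg4, the lubricin of joints and tendon surfaces, was at 291, 182, 18.98 and 28.4 CPM, which is 15.3-fold between its highest and lowest. How much tendon stayed on each muscle at dissection is not given in the sources used here, and its part in the matrix values was not tested.

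Fibro-adipogenic progenitor genes held 0.171%, 0.176%, 0.125% and 0.154%, with 50.8% of their counts from the actin-severing Gsn, which other cells also use. The stem-cell surface markers Cd34 and Ly6a were at 123, 156, 131 and 192 CPM and at 80.0, 102, 52.1 and 61.0 CPM. The adipocyte list held 0.544%, 0.627%, 0.638% and 0.418%, with 81.7% of its counts from Car3. Among the genes better tied to fat cells, Fabp4 was at 263, 378, 274 and 400 CPM and Plin4 at 755, 559, 252 and 340 CPM. Smooth muscle and pericyte genes held 0.104% to 0.137%, and Schwann cell genes 0.0166% to 0.0198%, led by the myelin protein gene Pmp22. None of the 12 smooth muscle and pericyte genes or the 6 Schwann cell genes with at least 10 CPM had a 2-fold range. The share over all 8216 genes at that level was 6.55%, and lists this small cannot be told from it.

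Macrophage genes had the widest range of shares among the lists plotted. They held 0.206%, 0.0971%, 0.0344% and 0.0416% of the counts in replicates 1 to 4, or 5.98-fold between replicate 1 and replicate 3. Lyz2, the lysozyme of macrophages, had 361, 200, 75.03 and 96.1 CPM, and the receptor Csf1r, on which these cells depend, 71.8, 45.8, 19.9 and 27.4 CPM. The complement subunit C1qa, typical of resident macrophages, had 49.1, 30.1, 16.2 and 20.6 CPM. For each of these, replicate 1 was highest and replicates 3 and 4 were lowest. Genes of injury macrophages spread further: osteopontin (Spp1) had 184, 23.9, 3.66 and 3.64 CPM, Gpnmb 171, 18.3, 8.23 and 7.72 CPM, and Trem2 22.1, 4.76, 3.06 and 2.18 CPM. In replicate 1, Spp1 was 7.70-fold and Gpnmb 9.34-fold above the next library, whereas the monocyte receptor Ccr2 was highest in replicate 2, at 31.8, 51.4, 12.3 and 10.6 CPM.

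Of the 26 macrophage genes with a mean of at least 10 CPM, all 26 had a 2-fold range, against a background of 6.55% of the 8216 genes at that level. The list was written with results of these data known, so this count describes the list and no more. Antigen-presenting genes of MHC class II did not follow: Cd74 was at 140, 194, 131 and 162 CPM, H2-Aa at 62.6, 88.7, 57.7 and 68.9 CPM, and none of the 4 genes of that list with at least 10 CPM had a 2-fold range. Interferon-response genes were highest in replicate 2, at 0.0677%, 0.111%, 0.0605% and 0.0703% of the counts. B2m, the light chain of MHC class I, was at 183, 266, 167 and 188 CPM, and the guanylate-binding Gbp4 at 12.2, 58.8, 24.7 and 18.4 CPM. Replicate 1 was thus highest in macrophage genes and replicate 2 in interferon-response and class II genes.

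Other blood and immune cells were barely represented. None of the 15 T and natural killer cell genes, the 8 B cell genes or the 11 neutrophil and marrow genes reached 1 CPM in all 4 libraries, and their lists held at most 0.000370%, 0.000292% and 0.00137% of the counts. The mast cell proteases Tpsb2 and Mcpt4 were at 2.79 ± 0.311 and 2.52 ± 0.311 CPM (SD, n = 4), so a trace of mast cells was read in every library. Haemoglobin and red cell genes held 0.00230% to 0.00355%, led by Hba-a2 at 14.1, 22.7, 21.03 and 16.5 CPM, and skin, cartilage and bone genes 0.000701% to 0.00169%. Blood and skin genes together thus took less than the smallest stromal list, that of Schwann cells, in every library.

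**Figure D4:**
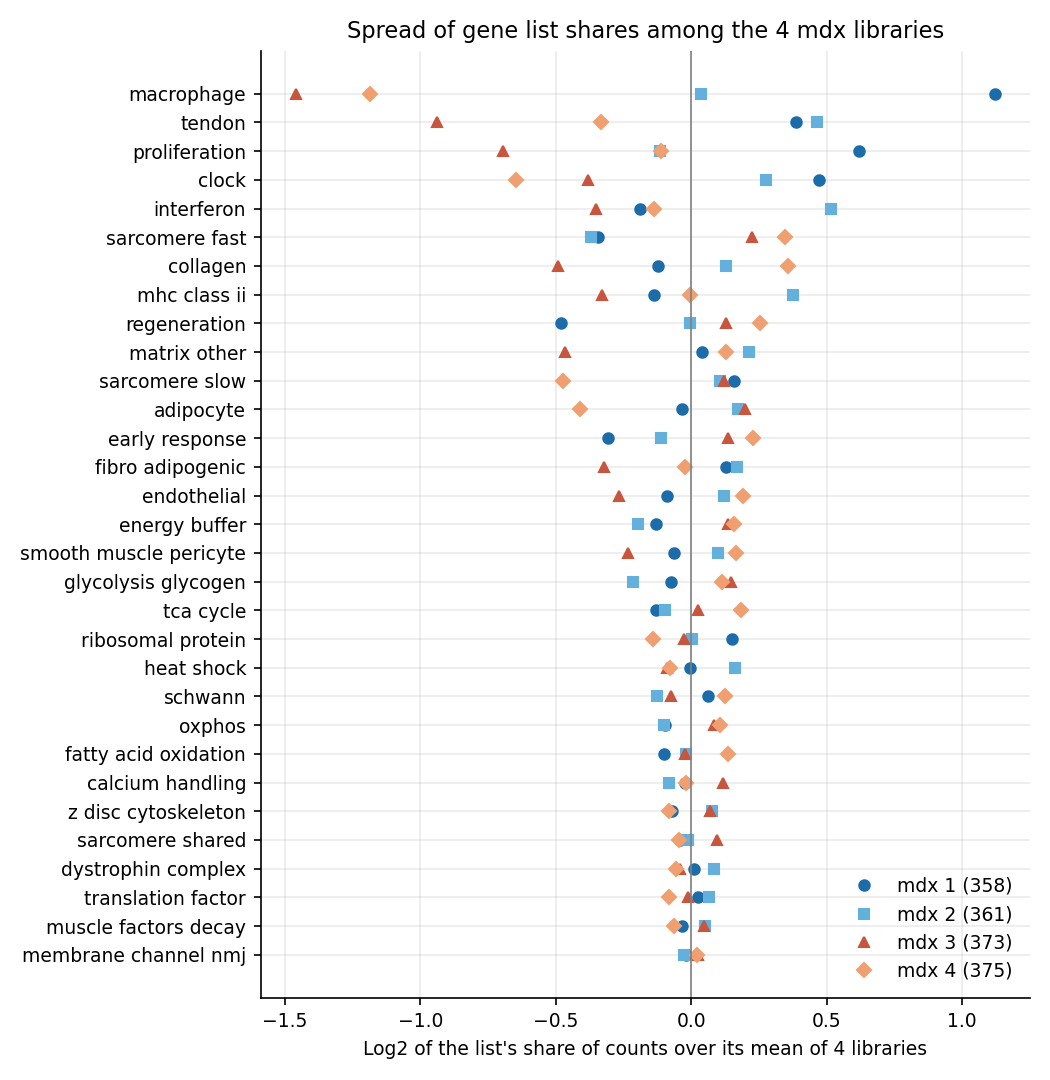
Log2 of each gene list's share of counts in a library over its mean of 4 mdx libraries, for the lists named on the vertical axis, sorted by spread. Macrophage genes spread most, with replicate 1 highest and replicate 3 lowest, and membrane channel genes least. Fast sarcomere genes place replicates 1 and 2 on the left, while clock genes place them on the right.

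Spread was measured for the 8216 genes with a mean of at least 10 CPM. The median SD of log2 CPM over the 4 libraries was 0.145, with the middle of the genes between 0.0926 and 0.232, beside 0.0591 from counting alone. The SD exceeded its counting share in 7379 genes, or 89.8%. The highest library was at least 2-fold above the lowest in 538 genes, or 6.55%, and at least 4-fold in 87. The common biological coefficient of variation by edgeR, the spread left once counting is removed, was 0.176, and it was between 0.163 and 0.187 when each library was left out in turn. The steadiest named genes had ordinary cell functions. Tpp2, a peptidase, was at 88.1, 87.5, 87.9 and 87.8 CPM, the splicing protein gene Snrnp70 at 151, 151, 154 and 152 CPM and the cohesin subunit Smc3 at 40.4, 41.1, 41.0 and 41.1 CPM. The other 9 of the 12 with the smallest SD were Icmt, Dmap1, Rnf19a, Grlf1, Wdr11, Smarce1, Zmym4, Tmem9b and Tmem110, and none is specific to muscle.

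Pearson's r of log2 CPM across these genes, which are not independent replicates, was 0.981 between replicates 1 and 2 and 0.984 between replicates 3 and 4. The remaining 4 pairs had 0.954 to 0.969. Replicates 1 and 2 were 2-fold apart in 95 genes and replicates 3 and 4 in 57, against 178 to 320 genes for the other pairs. The 4 libraries thus fell into pairs by animal number, 358 with 361 and 373 with 375. The labels give no date, litter or batch for these numbers, so what parts the pairs was not tested, and no p is given for a split seen in the data.

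Genes on either side of this split were counted where the pairs did not overlap and their means were at least 2-fold apart. Animals 358 and 361 were higher in 123 genes, 1.5% of the 8216, and animals 373 and 375 in 62, or 0.755%. The split was seen in these data, and the lists were written with results of these data known. Counts per list on either side thus describe the lists and no more. Among the macrophage genes with at least 10 CPM, 24 of 26 were on the first side and 0 on the other, the exceptions being Ptprc and C1qc, whose means were less than 2-fold apart. Of the matrix genes outside the collagens, 5 of 43 were on the first side: the crosslinker Lox, the protease inhibitors Timp1 and Timp3, the repair glycoprotein Tnc and Ctgf. Timp1 was at 35.2, 40.4, 6.43 and 6.202 CPM in replicates 1 to 4, and Ctgf, a growth factor of fibrosis, at 119, 110, 33.5 and 54.5 CPM. The metallothioneins Mt1 and Mt2, which bind zinc and respond to stress hormones, were at 109, 121, 25.05 and 21.8 CPM and at 73.3, 95.4, 9.55 and 5.33 CPM, and the acute-phase inhibitor Serpina3n at 95.2, 152, 23.1 and 4.73 CPM. On the other side stood the fast-fibre genes Myh4, Mybpc2 and Actn3, the last at 152, 129, 607 and 284 CPM. They were joined by 4 of the 17 early-response genes with at least 10 CPM, among them Fos (9.31, 14.4, 45.0 and 35.9 CPM) and Egr1 (17.9, 22.1, 130 and 43.6 CPM), by Kdr and Cldn5, 2 of the 18 endothelial genes, and by the receptor gene Relt (7.39, 7.28, 36.8 and 38.0 CPM). For Egr1, replicate 3 was well above replicate 4, so its position on this side is uneven. Neither list was split as a whole: the leading endothelial gene Aqp1 was at 528, 525, 389 and 407 CPM, and the early-response gene Klf6 at 69.0, 77.0, 40.5 and 63.2 CPM, both lower in replicates 3 and 4.

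Circadian clock genes were split along the same line, in both directions. In the clock, Arntl with Clock or Npas2 switches on the Per and Cry genes, which switch their activators off, and the outputs Dbp, Tef and Hlf follow, so Arntl peaks when Per and Dbp are low. Arntl had 4.42, 3.84, 28.8 and 31.2 CPM in replicates 1 to 4 and Npas2 0.756, 1.38, 6.61 and 9.30 CPM, so replicates 3 and 4 were high. Per2 had 51.2, 28.4, 2.34 and 2.83 CPM, Per3 102, 72.3, 15.3 and 14.3 CPM, and Dbp 62.6, 50.5, 11.2 and 4.95 CPM. These were high in replicates 1 and 2, opposite to Arntl. Tef was at 466, 333, 190 and 148 CPM, Hlf at 22.3, 13.4, 3.604 and 2.39 CPM and Per1 at 140, 108, 15.1 and 41.7 CPM, on the same side as Per2. Of the 12 clock genes with at least 10 CPM, 6 were on the side of animals 358 and 361 and 2, Arntl and Clock, on the other, against the backgrounds of 1.5% and 0.755%. Here too the split was seen in these data and the list was written with results known, so these counts only describe the list. Nr1d1, a repressor of Arntl, kept to neither side, at 96.3, 185, 270 and 137 CPM, and Cry1 was at 20.9, 14.7, 28.2 and 26.9 CPM.

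Values of the 3 libraries titled mdx/Runx1f/f were set beside these by animal number. On the scale of all 7 libraries, Arntl was at 3.06 and 3.68 CPM in animals 359 and 363 and at 40.1 CPM in animal 374, and Per2 at 50.1, 46.3 and 3.16 CPM. For these 2 genes animals 359 and 363 were thus like 358 and 361, and 374 like 373 and 375. The same sides were seen for Clock, Per3, Cry1, Cry2, Nr1d2, Dbp, Tef, Hlf and Gm129. Per3 was at 88.9, 67.8 and 10.5 CPM in animals 359, 363 and 374, and Clock at 34.4, 39.0 and 81.7 CPM. Per1, Nr1d1 and Bhlhe41 were less clear. Per1 was at 61.3 CPM in animal 374, between 43.0 CPM in 375 and 79.7 CPM in 359. Nr1d1 was at 79.5 and 79.7 CPM in 359 and 363 against 191 CPM in 361. Bhlhe41 was at 7.37 CPM in 363 beside 7.18 CPM in 374. Myh6 did not keep to that order: it was at 250 and 1742 CPM in animals 359 and 363 and at 764 CPM in animal 374. The hour at which muscles were taken is not given in the sources used here, and its part in these values was not tested.

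Clock proteins bind short motifs near the start of their target genes, and 3 such promoters are printed because their genes moved together here. Sequences are the 250 bases before a RefSeq start site on build GRCm38.p6, on the strand of the gene, with the E-box CACGTG, the site of Arntl and its partners, in capitals. Gm129 (Ciart), a clock repressor at 10.99, 7.62, 0.781 and 1.31 CPM, is shown from chr3:95882229-95882478 on the minus strand. Per1 is shown from chr11:69098699-69098948 and Tef from chr15:81802423-81802672, both on the plus strand.

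Gm129: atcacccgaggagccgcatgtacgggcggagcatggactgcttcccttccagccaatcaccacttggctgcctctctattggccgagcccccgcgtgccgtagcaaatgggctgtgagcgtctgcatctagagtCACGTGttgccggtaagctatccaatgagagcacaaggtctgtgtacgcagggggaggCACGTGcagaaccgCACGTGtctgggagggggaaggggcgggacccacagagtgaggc
Per1: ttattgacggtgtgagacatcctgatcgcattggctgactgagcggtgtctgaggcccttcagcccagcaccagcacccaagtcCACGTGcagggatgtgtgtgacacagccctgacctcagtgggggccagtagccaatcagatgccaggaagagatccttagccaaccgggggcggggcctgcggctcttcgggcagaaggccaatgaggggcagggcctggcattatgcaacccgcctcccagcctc
Tef: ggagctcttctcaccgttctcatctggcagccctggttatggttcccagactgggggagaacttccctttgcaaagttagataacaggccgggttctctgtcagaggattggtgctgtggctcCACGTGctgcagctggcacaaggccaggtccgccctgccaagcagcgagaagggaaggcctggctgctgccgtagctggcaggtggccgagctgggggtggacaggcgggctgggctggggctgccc

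Gm129 holds 3 E-boxes, which begin 116, 58 and 44 bases before the start site, Per1 holds 1 at 166 bases and Tef 1 at 127 bases. Another start site of Per1 holds none, and another of Tef holds 1. The motif is its own reverse complement, so 1 search covers both strands. It occurs in the same window of 6.02% of 32851 RefSeq promoters and in 5 of the 13 clock genes with an entry, the other 2 being Bhlhe41 and Cry1. Per3, Dbp and Hlf were high in the same libraries as Per1 and Tef but hold no E-box in this window, and Per2 has no entry. Cry1 was not high with Per1 and Tef, so the motif did not sort these genes by side. The D-box, searched as TTATGTAA, TTATGCAA and TTACGTAA on both strands, occurs in 1.61% of promoters and in those of Per1 and Per3. A match describes the letters of the window and is not evidence of binding in these muscles.

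**Figure D5:**
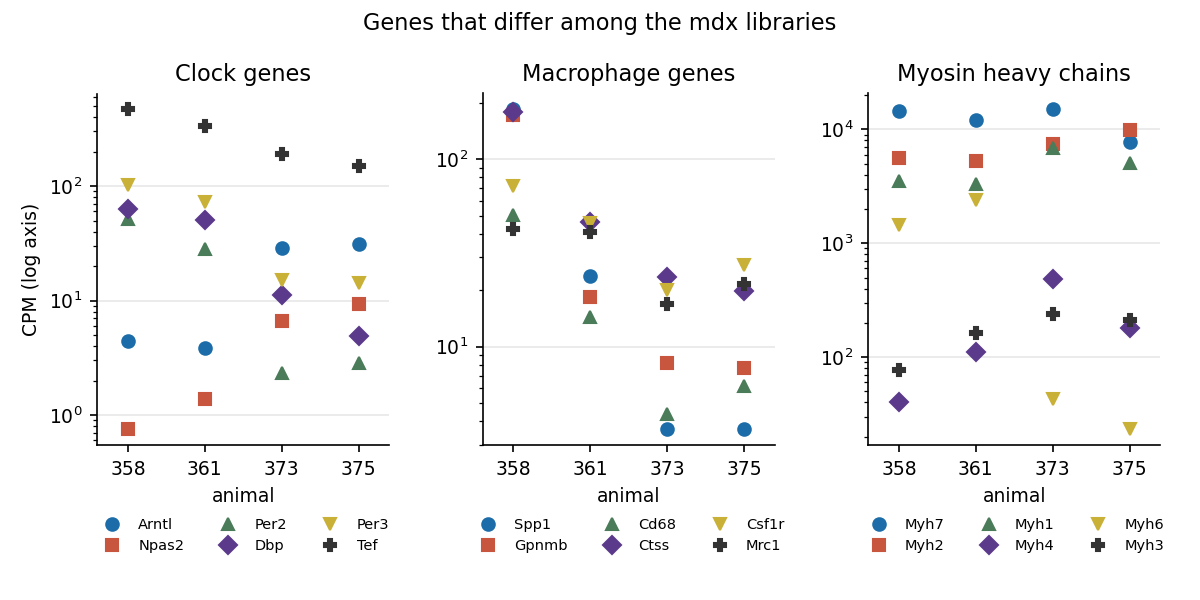
CPM (log axis) in the 4 mdx libraries, by animal, of 6 clock genes, 6 macrophage genes and 6 myosin heavy chain genes, with 1 point per library. Arntl and Npas2 lie high in animals 373 and 375 where Per2, Per3, Dbp and Tef lie low. Macrophage genes are highest in animal 358, as for Spp1 at 184, and Myh6 drops from 2397 to 23.3.

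Some genes set a single library apart. Counting genes at least 2-fold above or at least 2-fold below all 3 other libraries, replicate 1 had 24 above and 14 below, replicate 2 had 6 and 10, replicate 3 had 9 and 9, and replicate 4 had 8 and 5. Replicate 1 was high in Gpnmb and Spp1, and also in Fkbp5 (185, 45.6, 42.2 and 26.4 CPM) and Arrdc2 (119, 17.4, 12.9 and 10.1 CPM). Fkbp5 is a well-known target of the glucocorticoid receptor. Replicate 2 was high in Ucp2 (88.2, 226, 36.0 and 51.6 CPM) and in Gbp4 and Iigp1, which interferon gamma induces, and low in Tmc7 (37.8, 1.43, 43.2 and 46.5 CPM). Replicate 3 was high in Myh4, Pvalb, Egr1 and Cyp26b1, which breaks down retinoic acid, and low in the tendon genes Comp, Chad and Tnmd. Replicate 4 was high in Cish, a feedback inhibitor of cytokine signalling (6.46, 2.86, 4.57 and 82.4 CPM), in the imprinted gene Mest (12.3, 15.8, 19.04 and 42.2 CPM) and in Pdk4. It was low in Cyfip2 (310, 337, 159 and 64.6 CPM).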

How the data were processed

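RNA of 4 soleus muscles titled mdx was sequenced from TruSeq libraries after extraction with a 5PRIME PerfectPure kit, per the labels. The authors deposited raw read counts per gene symbol, made with TopHat2 2.0.10 and HTSeq on mouse build mm9, per the submitters' processing notes, which also name DESeq2 1.6.3. Not given in the sources used here are the annotation, strand setting and treatment of multi-mapped reads. The 7 columns of size-factor-normalised values were not used.

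Shares of counts used all genes of a library. CPM were scaled by TMM (edgeR 4.0.16, R 4.3.3), and log2 CPM took a prior count of 2. Exon lengths came from GENCODE M21 (GRCm38), 19647 matched by symbol and 2572 by synonym. Each library differed from each other beyond sampling noise (lowest chi-square per degree of freedom 24.4). The titles name different animals, so replicates were read as separate animals. No test between groups was run, and values are mean ± SD. The dispersion step was tested on simulated data. The precision of counting follows from 16529110 to 18550109 counts per library, and counting error covers neither PCR duplication nor animals.

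Named genes were the 25 highest per-length levels, up to 4 leading members of each list, the 12 largest and 12 smallest SD of log2 CPM at 10 CPM or more without unnamed predicted genes, all isoform pairs, Runx1, Dmd, Utrn, Myh3, Myh8, Xist and Uty. Cardiac markers, further list members and genes on 1 side of the animal numbers or of 1 library were chosen after their values were seen. Members and lists were chosen with earlier results of these data known.

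Alternatives left out each library, joined columns by the description field, used all 7 libraries, and changed denominator, normalisation, filter, prior count and length scale.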

Additional observations from a re-analysis of the deposited data

Results flagged for a closer look

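Of 112 values examined over the 4 mdx libraries, 7 had 1 library far from the other 3, measured as its gap to the nearest library over the whole range. Chance would flag about 1 in 20 such groups if they were picked without regard to spread. Spp1, Gpnmb, Cish and Smc3 were named for their large or small SD, so that rate does not hold for the values examined. Replicate 4 was low in the slow sarcomere share, at 3.04% of the counts, and in the slow troponins Tnnt1 (3216 CPM) and Tnni1 (1747 CPM), which belong to that list. Replicate 1 was high in the macrophage genes Spp1 (184 CPM) and Gpnmb (171 CPM), and low in the cohesin gene Smc3, at 40.4 CPM, where the gap is less than 1 CPM. Cish was high in replicate 4, at 82.4 CPM. No cause was tested for these values.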

How the results depend on the processing

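No paired analysis was possible because no result comes from a test between groups, so replicate numbers that both genotypes share pair nothing. Over the alternatives, 85 summary values stayed within the spread between libraries, or within 1.5 times for counts, and 30 moved.

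Leaving out 1 library gave 292 to 437 genes with a 2-fold range against 538, lowest without replicate 1. With columns joined by the description field, the shares of counts were 24.4% for fibre, 10.04% for metabolic, 3.12% for stromal and 0.458% for immune genes, the 10 and 100 most abundant genes held 18.5% and 42.5%, 1129 genes had a 2-fold range, and the median r of library pairs was 0.941 against 0.967. Over all 7 libraries the stromal share was 3.00%, the immune share 0.368%, the 2-fold genes 1880 and the median r 0.941. The stromal and immune shares moved under both of these settings, and the fibre and metabolic shares only with columns joined by the description field. All these shares, like the other values that moved there, thus rest on the titles being right.

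Without the 10 most abundant genes, fibre held 20.8%, metabolic 12.4%, translation 1.27% and stromal genes 2.83%, the next 10 and 100 genes 8.55% and 32.5%, and 417 genes made up 50% of the counts. Per kilobase the shares were 32.1% for fibre, 19.1% for metabolic, 1.53% for translation and 0.371% for immune genes, and the highest 10 and 100 genes held 21.2% and 47.7%. Filtering at a mean of 1 CPM gave 1684 genes with a 2-fold range, and no filter gave 7318, with a median r of 0.986. Counting any gene with a read raised the genes detected to 19311. Changing the normalisation or the prior count moved none of the spread values.

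With 4 muscles of 1 genotype, a difference between animals cannot be told apart from dissection, handling or hour of sampling, which the labels do not give. Levels of genes without a matched length or with near-identical copies are uncertain.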
